A study of Homo sapiens with 6 samples.

Results

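Transcripts of 10 genes for matrix glycoproteins and lysyl oxidases were measured by RNA sequencing in A549, a human lung adenocarcinoma line. The genes were chosen by name (FN1, TNC, SPARC, SPOCK1, LUM, LOX, LOXL1, LOXL2, LOXL3 and LOXL4), and each had 1 row among the 58735 genes of the deposited tables. All cells were described as stable lentiviral transductants grown in RPMI medium with 10% serum, in 3 groups of 2 libraries. The T133A group carried PLVX-HOXB9-T133A, HOXB9 with a threonine replaced by alanine. The KO group was labelled PLVX-HOXB9 KO, and the WT group carried PLVX-HOXB9, the unchanged homeobox transcription factor. The sample labels name the PLVX lentivirus for all groups, whereas the series text names the KO group without it. The labels do not say whether T133A and WT cells kept their own HOXB9, whether a group was 1 clone, or whether its 2 libraries were grown apart, and no group had an empty vector. P-values therefore measure only the spread between these libraries, which may be technical.

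The extracellular matrix is a network of secreted proteins that holds cells in place and signals to them. Fibronectin (FN1) is assembled by cells into fibrils that bind integrins, tenascin-C (TNC) modulates attachment to those fibrils, SPARC binds collagen and alters adhesion, SPOCK1 (testican-1) is a proteoglycan of the SPARC family, and lumican (LUM) is a small leucine-rich proteoglycan that binds collagen fibrils. Lysyl oxidases are secreted copper enzymes that oxidise lysines of collagen and elastin, the step that begins covalent cross-linking. LOX and LOXL1 form a subgroup whose pro-enzymes are cleaved by BMP1-type proteases, while LOXL2, LOXL3 and LOXL4 carry scavenger receptor domains. In carcinoma cells, FN1, SPARC, LOX and LOXL2 are often followed as genes linked to mesenchymal traits and tissue stiffening.

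Upstream sequences are shown for FN1 and LOX, which were both lower in KO cells, and for TNC, which had its highest level in T133A cells. They come from RefSeq (GRCh38.p14), all on the minus strand, written 5′ to 3′, and hold the bases before the RefSeq start that lie outside exons of GENCODE 29. Capitals mark letters that match a searched motif.
FN1, chr2:215436173-215436318, bases -250 to -105: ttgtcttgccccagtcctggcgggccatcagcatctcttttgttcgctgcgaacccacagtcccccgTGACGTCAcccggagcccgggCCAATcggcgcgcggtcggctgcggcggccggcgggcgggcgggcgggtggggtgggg
LOX, chr5:122078361-122078509, bases -250 to -102: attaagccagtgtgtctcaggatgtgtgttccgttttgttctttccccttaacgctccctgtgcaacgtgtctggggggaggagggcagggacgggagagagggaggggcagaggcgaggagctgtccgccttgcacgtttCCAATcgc
TNC, chr9:115118258-115118407, bases -250 to -101: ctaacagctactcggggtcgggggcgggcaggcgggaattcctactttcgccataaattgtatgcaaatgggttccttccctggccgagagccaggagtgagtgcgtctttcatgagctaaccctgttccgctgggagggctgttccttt

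Both strands of the 250 bases before each RefSeq start were searched for 6 motifs, exon bases included. Windows were matched for 7 of the genes (FN1, TNC, SPARC, LOX, LOXL1, LOXL3 and LOXL4), with further windows at other starts for LOX and LOXL3. LOXL2, on chromosome 8, was left out of the search, and no window was matched for SPOCK1 or LUM. The SPARC and LOXL1 windows lay wholly within exons of GENCODE 29. FN1 held a cyclic AMP response element (TGACGTCA, bases -183 to -176), a CCAAT box (bases -162 to -158) and a TATAA (bases -28 to -24). LOX held a CCAAT box at bases -109 to -105 of the window printed in part above, and TNC held a TATAA at bases -27 to -23. Both TATAA matches lay within exons of GENCODE 29, outside the printed stretches. LOXL4 alone among these 7 held the NF-kB consensus, at bases -210 to -201. No window matched TGANTCA (AP-1) or TAATTA (a homeodomain core), and no matches overlapped. Among 35116 windows of the same length, 1.65% held TGACGTCA, 32.0% CCAAT, 18.9% TATAA, 9.96% the NF-kB consensus, 6.57% TGANTCA and 4.35% TAATTA. These matches describe the letters only.

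Total counts ran from 16299059 to 18745432 per library, and mitochondrial genes took 8.51% to 8.91% of them in T133A, 4.45% to 5.60% in KO and 7.84% to 7.87% in WT. HOXB9 was counted 4777 and 3577 times in T133A, 239 and 286 times in KO, and 3807 and 3889 times in WT, and was lower in KO than in WT (log2 fold change -3.88, SE 0.135, edgeR adjusted p = 3.27e-16). Replicates differed by more than sampling noise in each group (chi-square per degree of freedom 10.1 in T133A, 12.1 in KO and 2.46 in WT). The 6 epithelial markers summed to 8422 to 10080 CPM in T133A, 7899 to 8874 CPM in KO and 8657 to 9254 CPM in WT. Among them EPCAM, an adhesion molecule, had 226 and 213 counts in T133A, 32 and 32 in KO, and 248 and 304 in WT, while the keratin KRT7 had 24379 and 20869 counts in T133A, 31720 and 30440 in KO, and 14878 and 15916 in WT. Summed levels of 8 fibroblast markers were 17.8 to 22.5 CPM in T133A, 13.99 to 14.2 CPM in KO and 21.2 to 22.2 CPM in WT. Of these, COL1A2, COL3A1 and PDGFRA had at most 3 counts in KO libraries, and FAP and DCN were at 0 there. COL1A2 and FAP had at most 3 counts in every library. THY1 went the other way, with 44 and 13 counts in T133A, 78 and 66 in KO, and 13 and 11 in WT. COL1A1 (149 and 184 counts in KO, 110 and 114 in WT) and PDGFRB (5 and 6 in KO, 1 and 3 in WT) were also not lower in KO. Of 5 haematopoietic markers (11.4 to 12.9 CPM in T133A, 5.52 to 11.0 in KO and 8.20 to 11.3 in WT), PTPRC had 1 count over all libraries. The 4 endothelial markers summed to 2.13 to 2.23 CPM in T133A, 0.304 to 0.323 in KO and 0.669 to 1.70 in WT. Across 16332 genes, the difference between T133A replicates 1 and 2 rose with GC content (Spearman's rho 0.50), as did the KO over WT log2 fold change (rho 0.26).

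T133A cells were compared with WT cells to ask which transcripts differ when the threonine is replaced. TNC rose 5.36-fold, SPARC 3.17-fold, LOXL2 2.52-fold and FN1 1.32-fold in T133A cells. Of the 9 genes that passed the low-count filter (LOXL1 did not), 4 were higher and 0 lower at an edgeR adjusted p under 0.05, and 0 were lower at an unadjusted p under 0.05 or by DESeq2. Over all 16340 genes tested, 5.58% were higher and 3.97% lower in T133A. The median log2 fold change of the 9 genes was 0.43, and that of all genes tested 0.0035. The split of all calls, 58.5% of them higher, was 45.0% with scaling by library size only.

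KO cells were compared with WT cells to ask which transcripts differ when HOXB9 is low. SPOCK1 rose 8.33-fold, SPARC 7.64-fold, LOXL2 2.38-fold, LOXL4 1.87-fold and TNC 1.59-fold in KO cells, while LUM fell 90.4-fold, LOX 5.47-fold and FN1 3.06-fold. Thus 5 of 9 genes were higher and 3 lower, where 23.6% of all genes tested were higher and 23.0% lower. The median log2 fold change was 0.66, and that of all genes tested 0.0010. LUM and LOX passed the low-count filter only through T133A and WT, so their place among the tested genes already depended on that difference. The share of all calls that were higher was 50.7%, and 65.8% after correcting for GC and length. Both comparisons with WT use the same WT libraries.

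T133A cells were also compared with KO cells. LUM, LOX, FN1 and TNC were higher in T133A cells and SPOCK1, SPARC and LOXL4 were lower, which makes 4 of 9 higher and 3 lower. The place of LUM and LOX among the tested genes depended on this difference too, as both passed the filter only through T133A and WT. Over all genes tested, 20.3% were higher and 19.6% lower in T133A than in KO. The median log2 fold change was 0.39, and that of all genes tested -0.0097. Of all calls, 50.9% were higher, and 34.9% after the same correction. That correction left the number of these 9 genes called higher and lower as it was in all 3 comparisons.

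**Figure D1:**
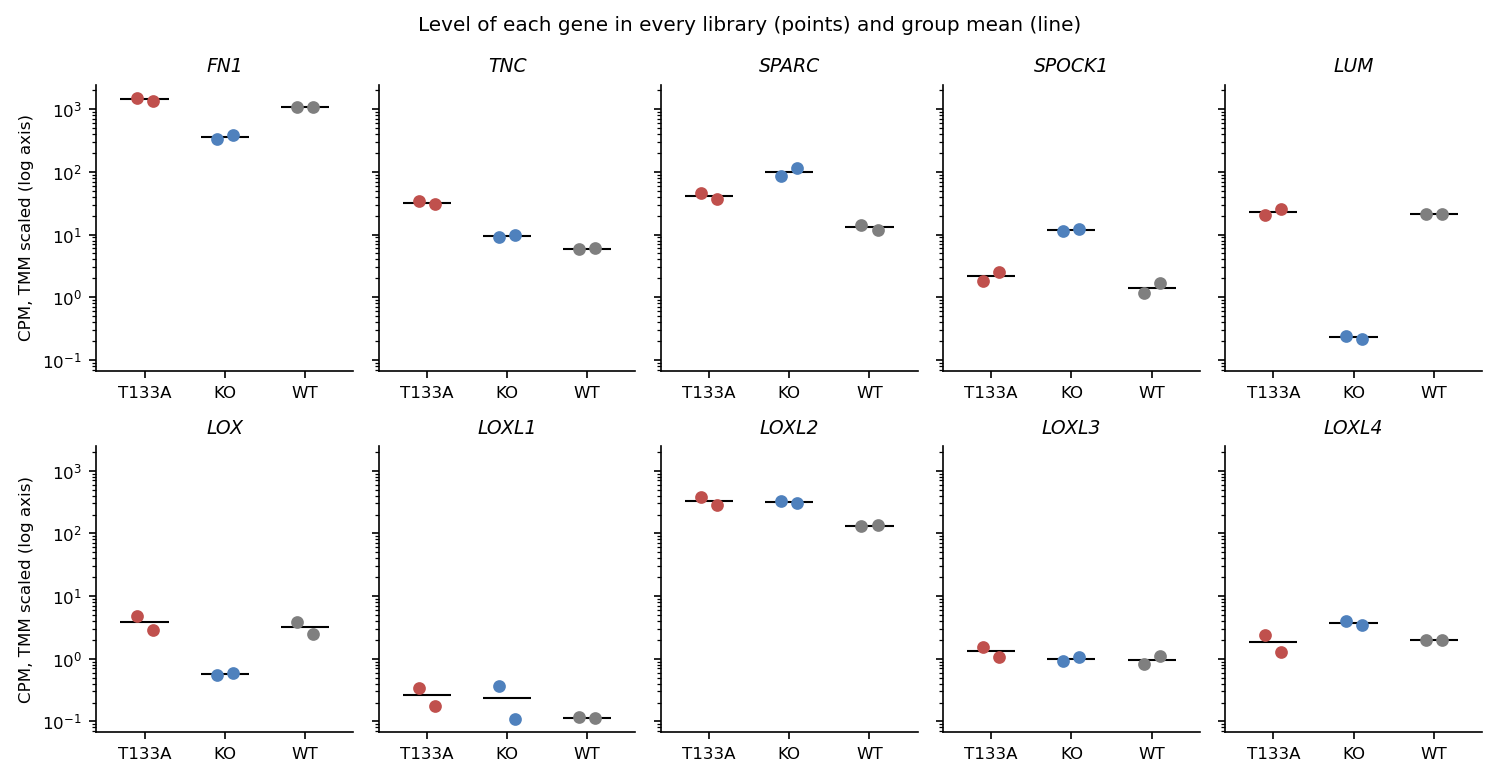
Level of each of the 10 genes in CPM (TMM-scaled CPM, log axis) in T133A, KO and WT cells, with a point for each library and a line at the mean of 2. LUM stood near 0.2 CPM in both KO libraries and above 20 CPM in the other libraries, while SPARC and SPOCK1 were highest in KO and TNC was highest in T133A.

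FN1 encodes fibronectin (ENSG00000115414, chromosome 2, 215360440 to 215436172, minus strand, GRCh38). It had 1536 and 1361 CPM in the T133A libraries, 332 and 385 CPM in the KO libraries, and 1103 and 1094 CPM in the WT libraries. The groups did not overlap, with T133A highest and KO lowest. FN1 fell in KO relative to WT (log2 fold change -1.62, SE 0.111, adjusted p = 6.17e-11), and T133A exceeded KO (2.01, SE 0.113, adjusted p = 1.38e-12). The rise in T133A over WT was small (0.40, SE 0.108, adjusted p = 0.0199) and lost its call without WT replicate 1 (adjusted p = 0.197), WT replicate 2 (0.225) or T133A replicate 1 (0.0597), each of which left a group with 1 library.

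TNC encodes tenascin-C, a matrix protein that is scarce in most adult tissue and induced in wounds and tumours (ENSG00000041982, chromosome 9, 115019578 to 115118257, minus strand). TNC had 33.7 and 30.3 CPM in T133A, 9.11 and 9.80 CPM in KO, and 5.85 and 6.08 CPM in WT. Every T133A library was above every KO library, and every KO library above every WT library. TNC rose in T133A over WT by 2.42 on the log2 scale (SE 0.158, adjusted p = 1.40e-10), in KO over WT by 0.66 (SE 0.169, adjusted p = 0.00261), and was higher in T133A than in KO by 1.76 (SE 0.150, adjusted p = 2.36e-09). These calls were kept under all alternatives run.

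SPARC, also called osteonectin, lies on chromosome 5 (ENSG00000113140, 151661096 to 151687165, minus strand). It had 46.0 and 36.9 CPM in T133A, 85.2 and 115 CPM in KO, and 14.3 and 11.9 CPM in WT. KO libraries were highest and WT libraries lowest, the reverse of the T133A and KO order seen for TNC. SPARC rose in T133A over WT (log2 fold change 1.66, SE 0.157, adjusted p = 8.31e-08) and in KO over WT (2.93, SE 0.156, adjusted p = 6.89e-13), and was lower in T133A than in KO (-1.27, SE 0.142, adjusted p = 1.90e-07). An antisense gene that shares 381 exon bases with SPARC, CLMAT3, had at most 1 count in any library.

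SPOCK1 lies on the same chromosome (ENSG00000152377, 136975298 to 137598379, minus strand) and belongs with SPARC to the family of matrix proteins with an EF-hand calcium-binding module. It was counted 32 and 43 times in T133A (1.84 and 2.53 CPM), 189 and 230 times in KO (11.5 and 12.4 CPM), and 20 and 30 times in WT (1.17 and 1.67 CPM). KO stood far above both other groups. SPOCK1 rose in KO over WT (log2 fold change 3.06, SE 0.254, adjusted p = 1.38e-09) and was lower in T133A than in KO (-2.45, SE 0.238, adjusted p = 2.28e-08). T133A over WT was 0.61 (SE 0.304, adjusted p = 0.234), which did not pass, although both T133A libraries lay above both WT libraries.

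LUM encodes lumican (ENSG00000139329, chromosome 12, 91102629 to 91111831, minus strand). It was counted 358 and 433 times in T133A (20.6 and 25.5 CPM), 4 and 4 times in KO (0.243 and 0.215 CPM), and 370 and 375 times in WT (21.6 and 20.9 CPM). T133A and WT overlapped, and LUM was close to the limit of detection in KO, where 3 counts correspond to 0.184 and 0.160 CPM. LUM fell in KO relative to WT (log2 fold change -6.50, SE 0.283, adjusted p = 1.79e-14), and T133A exceeded KO (6.61, SE 0.281, adjusted p = 1.04e-14). T133A over WT was 0.11 (SE 0.148, adjusted p = 0.707). Among the fibroblast markers, the collagen gene COL3A1 had 182 and 164 counts in T133A, 1 and 1 in KO, and 228 and 241 in WT, and COL1A1 had 153 and 100 counts in T133A, 149 and 184 in KO, and 110 and 114 in WT. The part of fibroblast-type transcripts in the LUM result was not tested, and in bulk RNA fewer cells of a type and less RNA per cell cannot be told apart.

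**Figure D2:**
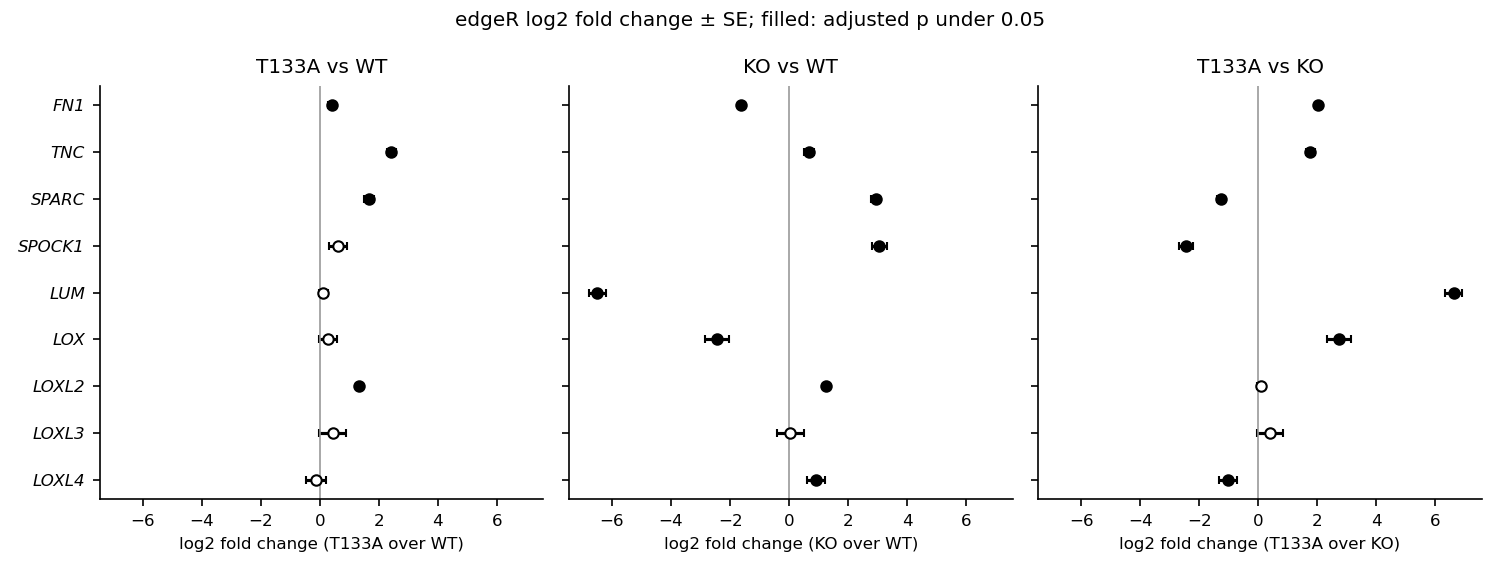
Log2 fold change from edgeR for the 9 genes tested, in T133A over WT, KO over WT and T133A over KO. Bars show a standard error derived from the F statistic of the test, and filled points had an adjusted p under 0.05. The LUM change in KO over WT was -6.50, FN1 lay on opposite sides of 0 in the T133A and KO comparisons with WT, and LOXL2 lay at similar values in both (1.33 and 1.25).

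LOX, the founding lysyl oxidase, lies on chromosome 5 (ENSG00000113083, 122063195 to 122078360, minus strand). It was counted 83 and 49 times in T133A (4.77 and 2.88 CPM), 9 and 11 times in KO (0.546 and 0.592 CPM), and 66 and 44 times in WT (3.86 and 2.45 CPM). T133A and WT overlapped, and both lay above KO. LOX fell in KO relative to WT (log2 fold change -2.45, SE 0.400, adjusted p = 3.06e-05), and T133A exceeded KO (2.73, SE 0.393, adjusted p = 7.26e-06). T133A over WT was 0.28 (SE 0.304, adjusted p = 0.637). SRFBP1, on the opposite strand, shares 138 exon bases with LOX (2.49% of its exon length) and had 167 and 252 counts in T133A, 296 and 217 in KO, and 238 and 229 in WT.

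LOXL1, which acts mainly in elastic fibre formation, was too low to be tested (ENSG00000129038, chromosome 15, 73925989 to 73952137, plus strand). It had 6 and 3 counts in T133A, 6 and 2 in KO, and 2 and 2 in WT. With the libraries of a group summed, the ratio to WT was 2.18 in T133A (exact 95% interval 0.608 to 9.69) and 1.96 in KO (0.524 to 8.88), so no difference was detectable at this depth. The T133A to KO ratio was 1.11 (0.382 to 3.32). These intervals cover counting error only. LOXL1-AS1, an antisense gene with 335 shared exon bases, had more counts than LOXL1 in every library (26 and 32 in T133A, 36 and 23 in KO, and 19 and 20 in WT).

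LOXL2, a lysyl oxidase that cross-links basement membrane collagen IV, was the most abundant of the enzymes (ENSG00000134013, chromosome 8, 23297189 to 23425328, minus strand). It had 379 and 289 CPM in T133A, 325 and 306 CPM in KO, and 129.9 and 135 CPM in WT. Every T133A and KO library was above both WT libraries, while the T133A libraries lay on either side of the KO libraries. ENTPD4, on the same strand, shares 120 exon bases with LOXL2 (2.10% of the LOXL2 exon length). ENTPD4 had 1496 and 1586 counts in T133A, 1091 and 1142 in KO, and 1636 and 1755 in WT. LOXL2 rose in T133A over WT (log2 fold change 1.33, SE 0.117, adjusted p = 2.49e-08) and in KO over WT (1.25, SE 0.116, adjusted p = 9.44e-09). T133A and KO did not differ past the threshold (0.08, SE 0.114, adjusted p = 0.602). That value turned on the T133A libraries, with -0.10 without T133A replicate 1 and a called 0.26 once T133A replicate 2 was left out (adjusted p = 0.0346).

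LOXL3 (ENSG00000115318, chromosome 2, 74532414 to 74555690, minus strand) had 27 and 18 counts in T133A (1.55 and 1.06 CPM), 15 and 20 in KO (0.911 and 1.08 CPM), and 14 and 20 in WT (0.818 and 1.12 CPM). All groups overlapped. No difference passed, with log2 fold changes of 0.43 in T133A over WT (SE 0.445, adjusted p = 0.620), 0.040 in KO over WT (SE 0.460, adjusted p = 0.951) and 0.39 in T133A over KO (SE 0.443, adjusted p = 0.519). With so few counts these estimates are wide, and a difference was not detectable at this depth. Its counts are uncertain, since HTRA2 on the opposite strand shares 625 exon bases (14.3% of the LOXL3 exon length) and had between 190 and 392 counts per library.

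LOXL4 lies on chromosome 10 (ENSG00000138131, 98247690 to 98268250, minus strand). It was counted 41 and 22 times in T133A (2.36 and 1.29 CPM), 67 and 64 times in KO (4.07 and 3.44 CPM), and 34 and 36 times in WT (1.99 and 2.01 CPM). KO was above both other groups, and the T133A libraries lay on either side of WT. LOXL4 rose in KO over WT by 0.91 on the log2 scale (SE 0.307, adjusted p = 0.0191), a call lost with DESeq2 (adjusted p = 0.0764) and without WT replicate 1 (0.0749), WT replicate 2 (0.0715) or KO replicate 1 (0.0877). T133A was lower than KO (-1.03, SE 0.311, adjusted p = 0.0108), a call lost without T133A replicate 2 (adjusted p = 0.149) or KO replicate 1 (0.0580). T133A over WT was -0.13 (SE 0.334, adjusted p = 0.871).

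Levels of different genes were compared per length, in FPKM as deposited by the authors. The length was that of all exon bases of a gene (17315 for FN1 and 4831 for SPARC). A transcript can be shorter than that, so orders and shares between genes depend on this choice. In T133A the order was FN1 (82.9 ± 5.74 FPKM, SD, n = 2), LOXL2 (57.9 ± 10.1), SPARC (8.49 ± 1.19), LUM (7.60 ± 1.26), TNC (3.29 ± 0.199), LOX, LOXL4, SPOCK1, LOXL3 and LOXL1. SPARC and LUM overlapped, as did each neighbour from LOX to LOXL3. In KO, LOXL2 came first (55.1 ± 1.23 FPKM), followed by SPARC (20.7 ± 4.73) and FN1 (20.7 ± 2.56), which overlapped, then SPOCK1 (1.91 ± 0.141), LOXL4, TNC, LOXL3, LOX, LUM and LOXL1. LOXL4 overlapped TNC there, and LUM overlapped LOXL1. In WT the order was FN1 (63.0 ± 0.610 FPKM), LOXL2 (23.0 ± 0.556), LUM (7.02 ± 0.194), SPARC (2.69 ± 0.349), TNC, LOX, LOXL4, SPOCK1, LOXL3 and LOXL1, with overlap between TNC and LOX, LOX and LOXL4, and SPOCK1 and LOXL3.

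The make-up of each family differed between groups on the same FPKM scale. The 5 glycoprotein genes summed to 107 and 98.5 FPKM in T133A, 39.1 and 49.7 FPKM in KO, and 74.3 and 72.8 FPKM in WT. FN1 held 81.5% and 80.01% of that sum in T133A, 48.3% and 45.3% in KO, and 85.4% and 86.0% in WT. SPARC held 8.74% and 7.77% in T133A, 44.4% and 48.4% in KO, and 3.95% and 3.36% in WT. FN1 and SPARC were thus close in KO on this scale. In CPM, not scaled to length, FN1 was higher in KO (332 and 385, against 85.2 and 115 for SPARC). The 5 lysyl oxidase genes summed to 67.0 and 51.9 FPKM in T133A, 57.5 and 55.6 FPKM in KO, and 24.1 and 24.7 FPKM in WT. LOXL2 made up 97.1% and 97.8% of the sum in T133A, 97.4% and 97.6% in KO, and 94.0% and 94.9% in WT. LOX made up 1.26% and 1.004% in T133A, 0.169% and 0.194% in KO, and 2.87% and 1.77% in WT.

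**Figure D3:**
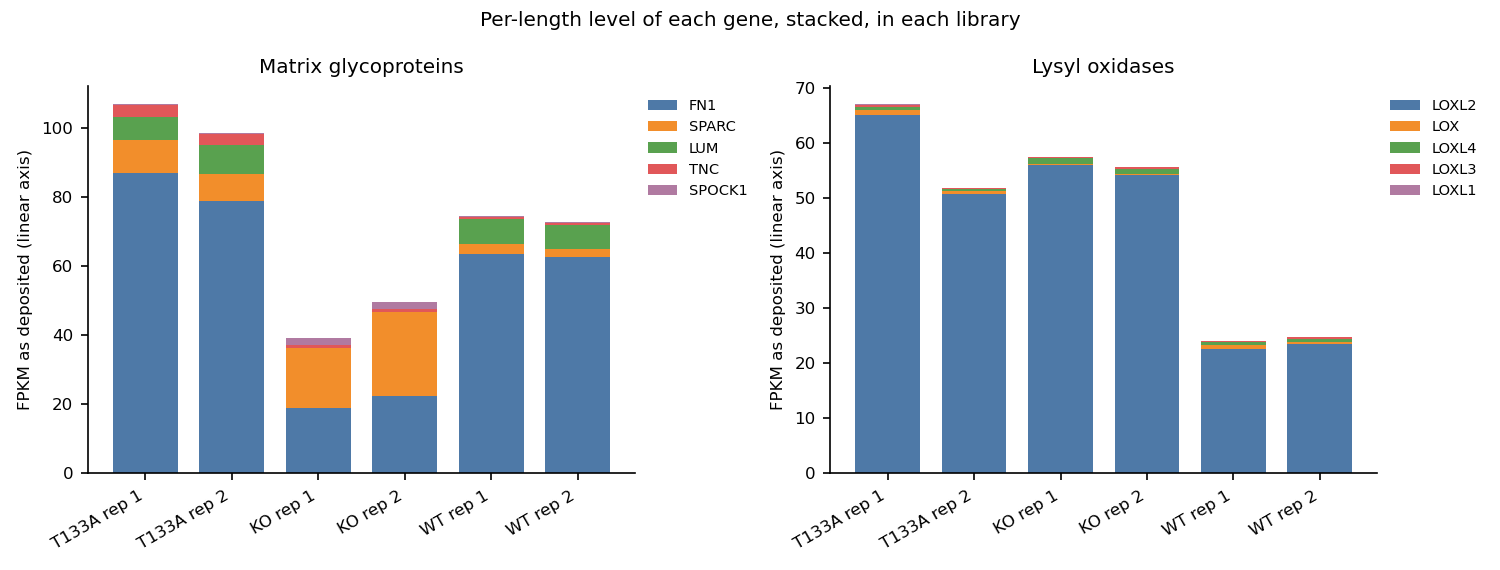
FPKM of the 5 matrix glycoprotein genes (left) and the 5 lysyl oxidase genes (right), stacked for each library of T133A, KO and WT on a linear axis from 0. FN1 filled most of the bar in T133A and WT but 48.3% and 45.3% of it in KO, and LOXL2 filled at least 94.0% of the lysyl oxidase bar in each library.

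Genes whose profile over the 6 libraries lay nearest to each gene were found by Euclidean distance between centred log2 CPM values. FN1 lay nearest to NNMT (distance 0.133), SERPINB1 (0.148) and SHLD1 (0.204). LOXL2 lay nearest to SDC4, a syndecan gene (0.183), AKR1B1 (0.224) and NFKB2 (0.262). LUM lay nearest to TNFSF15 (0.504), RARRES1 (0.508) and the fibrillar collagen gene COL3A1 (0.605), and TNC to SLCO2B1 (0.362), IRAK2 (0.478) and ARHGEF4 (0.676). The nearest to SPARC were GALNT9 (0.546), GALNT18 (0.605) and GPRC5B (0.706), and those to SPOCK1 were ALX4 (0.625), GFRA1 (0.674) and PADI3 (0.804). The nearest to LOX were ALOX5 (0.548), JUP (0.579) and PRR5L (0.604). LOXL3 lay nearest to OSR1 (0.202), MARCHF9 (0.229) and ZNF792 (0.238), and LOXL4 to RPL26 (0.206), PHLDA2 (0.210) and MEA1 (0.221).

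Other genes of the pathway were taken from 7 lists of 87 genes, of which 66 passed the low-count filter. Of these, 10 were higher and 5 lower in T133A than in WT, 14 were higher and 34 lower in KO than in WT, and 34 were higher and 9 lower in T133A than in KO. As shares of the 66, 15.2% were higher and 7.58% lower in T133A than in WT (5.58% and 3.97% of all genes tested), 21.2% higher and 51.5% lower in KO than in WT (23.6% and 23.0% of all genes tested), and 51.5% higher and 13.6% lower in T133A than in KO (20.3% and 19.6% of all genes tested). The share higher in KO was thus near that of all genes. Other SPARC family genes moved the other way from SPARC and SPOCK1 in KO cells. All 4 of those tested were lower in KO than in WT (median log2 fold change -2.11), 1 was higher and 1 lower in T133A than in WT, and 3 were higher and none lower in T133A than in KO. FSTL1, a secreted follistatin-like glycoprotein gene, had 768 ± 15.8 CPM in T133A, 81.7 ± 8.60 CPM in KO and 321 ± 8.44 CPM in WT (SD, n = 2). It rose in T133A over WT by 1.26 (SE 0.103) and fell in KO relative to WT by 1.98 on the log2 scale (SE 0.108). SMOC1, a calcium-binding basement membrane protein gene, had 89.9 ± 12.5 CPM in T133A, 9.35 ± 0.779 CPM in KO and 134 ± 2.64 CPM in WT, and was lower in KO than in WT (log2 fold change -3.84, SE 0.135). SPOCK3, a testican gene, was lower in KO than in WT (-2.24, SE 0.401), and its call in T133A over KO (1.34, SE 0.431, adjusted p = 0.0162) was lost without T133A replicate 2 (adjusted p = 0.0926) or KO replicate 2 (0.216). SPOCK3 passed the low-count filter only through T133A and WT, as 1 KO library lay under the filter's minimum. The call of SPOCK2, named after its values were seen, was lost in KO over WT with DESeq2 (adjusted p = 0.0569), which left 3 of the 4 genes lower. With a mean of at least 5 CPM required, 2 of these genes were tested and both were lower in KO than in WT.

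Tenascins, thrombospondins and other matricellular genes had 1 higher and 2 lower of 11 tested in T133A over WT, 2 higher and 7 lower in KO over WT, and 6 higher and 1 lower in T133A over KO. The share higher in KO, 18.2%, was under the 23.6% of all genes tested, and the share lower in KO was 63.6%, against 23.0% of all genes tested. In T133A over WT, 9.09% were higher and 18.2% lower, against 5.58% and 3.97%. The shares in T133A over KO were 54.55% higher and 9.09% lower, against 20.3% and 19.6%. TGFBI, a TGF-beta-induced adhesion protein gene, had 1787 ± 126 CPM in T133A, 1325 ± 35.5 CPM in KO and 689 ± 8.03 CPM in WT. It rose in T133A over WT by 1.38 (SE 0.106) and in KO over WT by 0.94 (SE 0.105). CCN1, listed as CYR61, an integrin-binding secreted protein gene, rose in KO over WT by 1.32 on the log2 scale (SE 0.138) and was lower in T133A than in KO (-1.46, SE 0.139). CCN5, listed as WISP2, fell in both (-0.64 in T133A, SE 0.126, and -1.27 in KO, SE 0.130). The thrombospondin gene THBS1 was lower in T133A than in WT (-0.52, SE 0.101), a call lost without WT replicate 1 (log2 fold change -0.48). THBS1 was also lower in KO than in WT (-0.42, SE 0.101), and T133A and KO did not differ past the threshold (-0.11, SE 0.101). TNXB (1.53, SE 0.252) and THBS3 (0.94, SE 0.164) were higher in T133A than in KO. Both were lower in KO than in WT (-1.31, SE 0.255, and -1.08, SE 0.163), and neither passed in T133A over WT. TNXB has a near-identical partial copy in the genome, so its counts are uncertain. With the correction for GC content and length, 1 gene was higher and 4 lower in T133A than in WT.

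Of 11 small leucine-rich proteoglycans other than LUM, DCN (decorin) was the only one to pass the filter, with 6 and 13 counts in T133A, 0 and 0 in KO, and 6 and 20 in WT. DCN fell in KO relative to WT (adjusted p = 0.00102) and was higher in T133A than in KO (adjusted p = 0.00343), with no fold change given because KO was at 0. DCN passed the low-count filter only through 1 T133A and 1 WT library, so its place among the tested genes already depended on these differences. It is among the genes counted above as lower in KO than in WT and higher in T133A than in KO. With only the compared groups in the fit, or with a mean of at least 5 CPM required, DCN did not pass the filter. T133A over WT was -0.41 on the log2 scale (SE 0.663, adjusted p = 0.772). DCN is also one of the fibroblast markers above.

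Elastic fibre genes had 3 higher and 1 lower of 15 tested in T133A over WT, 3 higher and 6 lower in KO over WT, and 7 higher and 4 lower in T133A over KO. In KO over WT, 20% were higher and 40% lower, against 23.6% and 23.0% of all genes tested. In T133A over WT, 20% were higher and 6.67% lower, against 5.58% and 3.97%. The shares in T133A over KO were 46.7% higher and 26.7% lower, against 20.3% and 19.6%. FBLN2, a fibulin gene named after its values were seen, passed the filter only through KO and is among the genes counted as higher in KO than in WT and lower in T133A than in KO. ELN, also named after its values were seen, is counted as lower in T133A than in KO and had 1 T133A library at the filter's minimum. With DESeq2, 3 genes were higher and 0 lower in T133A than in WT, as EFEMP1 lost its call (adjusted p = 0.0567). In T133A over KO, DESeq2 gave 6 higher and 3 lower, as EFEMP2 (adjusted p = 0.0795) and ELN (0.0863) lost theirs. LTBP1, which stores latent TGF-beta in the matrix, had 154 ± 9.60 CPM in T133A, 28.5 ± 1.41 CPM in KO and 153 ± 5.68 CPM in WT, and was lower in KO than in WT (log2 fold change -2.42, SE 0.112). FBLN5, encoding a fibulin that binds LOXL1 and elastin, was lower in KO than in WT (-1.88, SE 0.194) and higher in T133A than in KO (1.82, SE 0.194). The fibrillin gene FBN1 followed the order of FN1, higher in T133A than in WT (0.57, SE 0.108) and lower in KO than in WT (-0.86, SE 0.112). LTBP2 rose in T133A over WT by 1.14 (SE 0.117) and FBN2 by 0.37 (SE 0.0987, adjusted p = 0.0190). In KO over WT, LTBP2 was also higher (0.41, SE 0.119), whereas FBN2 was lower (-0.48, SE 0.0998). The FBN2 call in T133A over WT was lost without WT replicate 1 (log2 fold change 0.37) or WT replicate 2 (0.35). Each of these fits had 1 WT library and called fewer elastic fibre genes in T133A over WT.

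Genes for lysyl oxidase processing and copper supply had 0 called of 8 tested in T133A over WT by edgeR and by DESeq2. Over all genes tested, edgeR called 5.58% higher and 3.97% lower there. Of the 8, 3 were higher and 1 lower at an unadjusted p under 0.05 (edgeR). The most abundant, the procollagen protease gene BMP1, had 71.1 ± 7.05 CPM in T133A, against 70.5 ± 5.28 CPM in WT (SD, n = 2, log2 fold change 0.012, SE 0.112, adjusted p = 0.970). Of the 8, 2 were called there without T133A replicate 2, 1 without KO replicate 2, and 1 each with RLE, library size only, a mean of at least 5 CPM and the GC and length correction. In KO over WT, 2 were higher and 4 lower (25% and 50%, against 23.6% and 23.0% of all genes tested), and with DESeq2 1 was higher and 3 lower. TLL1, a BMP1-type protease, fell in KO (-1.86, SE 0.210), as did ATP7A, the pump that loads copper onto lysyl oxidases (-0.84, SE 0.122), while the copper chaperone gene ATOX1 rose (0.63, SE 0.142). In T133A over KO, 3 were higher, namely TLL1 (2.35, SE 0.206), BMP1 (0.51, SE 0.114) and ATP7A (0.47, SE 0.123), and none was lower. That was 37.5% higher and 0% lower, against 20.3% and 19.6% of all genes tested.

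Collagen-modifying enzymes and chaperones had 3 higher and none lower of 15 tested in T133A over WT, 3 higher and 9 lower in KO over WT, and 11 higher and 1 lower in T133A over KO. In KO over WT the share higher was 20%, under the 23.6% of all genes tested, and the share lower was 60%, against 23.0%. In T133A over KO, 73.3% were higher and 6.67% lower, against 20.3% and 19.6% of all genes tested. In T133A over WT, 20% were higher and 0% lower, against 5.58% and 3.97%. The prolyl 4-hydroxylase subunit genes P4HA2 (0.59, SE 0.123) and P4HA3 (0.63, SE 0.162) and the lysyl hydroxylase gene PLOD2 (0.54, SE 0.131) were those higher in T133A than in WT. Without WT replicate 1 or WT replicate 2, 1 of them was called, and PLOD2 lost its call without T133A replicate 2 (adjusted p = 0.146) and with scaling by library size only (adjusted p = 0.0653). With the correction for GC content and length, 4 were higher and 2 lower. In KO over WT, the prolyl 3-hydroxylase genes P3H2 (-0.68, SE 0.109) and P3H3 (-0.92, SE 0.156) and P4HA3 (-1.07, SE 0.179) fell. With DESeq2, 2 genes were higher and 9 lower in KO than in WT, as P4HA2 lost its call there (adjusted p = 0.0573). The gene lower in T133A than in KO was SERPINH1, a collagen chaperone (-0.72, SE 0.104). SERPINH1 was higher in KO than in WT (0.56, SE 0.104), while T133A over WT did not pass (-0.16, SE 0.104, adjusted p = 0.387).

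Fibronectin and tenascin receptors had 2 higher and 1 lower of 12 tested in T133A over WT, 4 higher and 3 lower in KO over WT, and 3 higher and 3 lower in T133A over KO. In KO over WT 33.3% were higher and 25% lower, against 23.6% and 23.0% of all genes tested. In T133A over KO 25% were higher and 25% lower, against 20.3% and 19.6%. In T133A over WT 16.7% were higher and 8.33% lower, against 5.58% and 3.97%. ITGA5, the alpha subunit of the main fibronectin receptor, had 83.2 ± 13.3 CPM in T133A, 96.5 ± 11.3 CPM in KO and 38.3 ± 0.186 CPM in WT. ITGA5 rose in T133A over WT by 1.12 (SE 0.125) and in KO over WT by 1.33 (SE 0.125). SDC4, a syndecan that binds fibronectin, rose in both as well (1.43 in T133A, SE 0.126, and 1.42 in KO, SE 0.126). ITGB5 was lower in KO than in WT (-0.95, SE 0.106), and SDC2 was lower in T133A than in WT (-1.07, SE 0.236) and than in KO (-1.39, SE 0.233). ITGB3 had 0.582 ± 0.0915 CPM in T133A, 3.20 ± 0.575 CPM in KO and 0.369 ± 0.109 CPM in WT. It was lower in T133A than in KO (-2.45, SE 0.419) and higher in KO than in WT (3.09, SE 0.450), while T133A over WT did not pass. ITGB3 passed the low-count filter only through KO, so its place among the tested genes already depended on these differences. With a mean of at least 5 CPM required, 2 receptors were higher and 2 lower in KO than in WT. With DESeq2, 3 were higher and 3 lower in KO than in WT, as SDC1 lost its call (adjusted p = 0.0537).

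**Figure D4:**
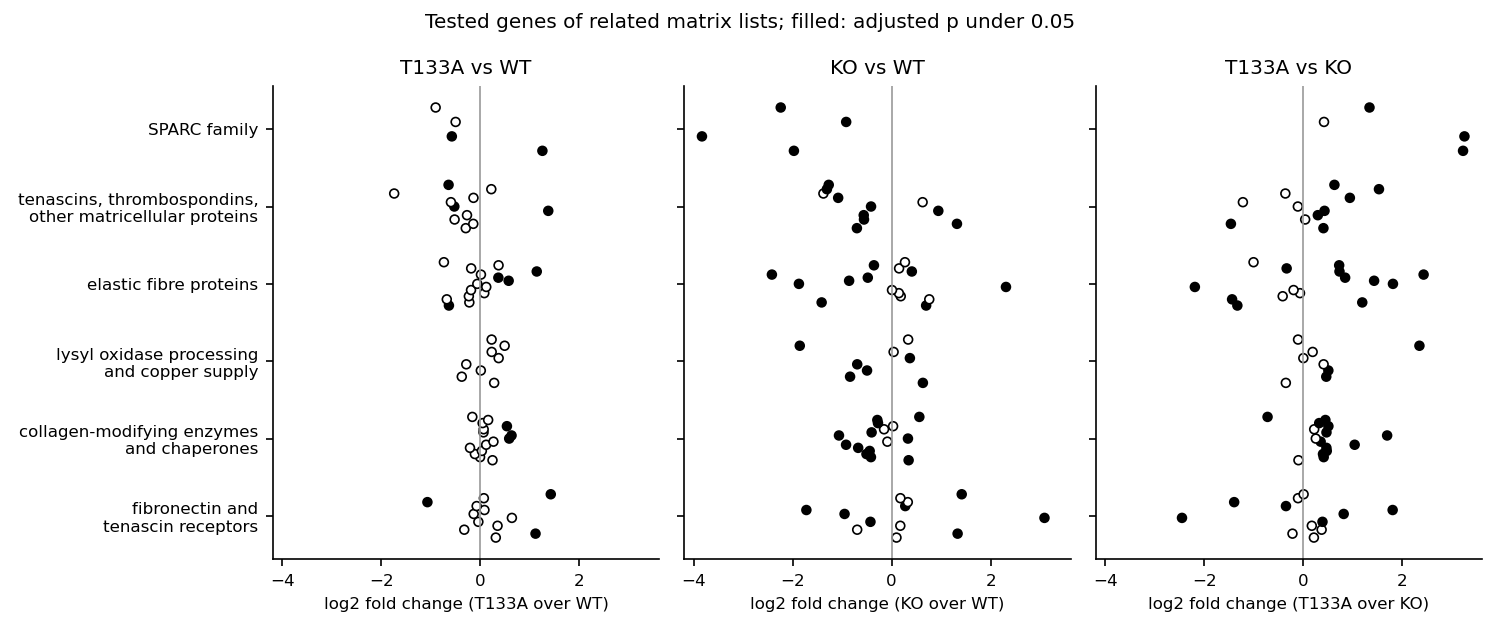
Log2 fold change of each tested gene of the related matrix lists in T133A over WT, KO over WT and T133A over KO, with filled points for an edgeR adjusted p under 0.05. DCN, at 0 counts in KO, is not drawn, and the tested SPARC family genes all lie below 0 in KO over WT.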

How the data were processed

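The deposited tables give a read count and an FPKM per gene for each library. Per the submitters' processing notes, HISAT2 2.0.5, featureCounts 1.5.0 and GRCh38 were used by the authors; annotation release and strand setting: not given in the sources used here. The counts deposited by the authors are not normalized. The FPKM values deposited by the authors scale counts to gene length and to library sizes of 0.967 to 1.03 times the totals, and served only for levels between genes.

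Genes were tested with edgeR 4.0.16 (R 4.3.3; filterByExpr, TMM, robust quasi-likelihood fit of all 6 libraries, group as the only term), with two-sided p-values adjusted by Benjamini-Hochberg over all 16340 genes tested. Each SE was derived from that test, as the absolute log2 fold change divided by the square root of its F statistic. CPM are TMM scaled. In simulated counts for T133A with WT (15892 genes), 59.4% of 1.5-fold, 81.5% of 2-fold and 95.3% of 4-fold changes were recovered. There, 12 unchanged genes were called. The simulation gave all genes 1 spread (coefficient of variation 8.96%) and no GC trend, so these rates need not hold for the real libraries.

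Members and lists were chosen with earlier results of these data known. Named from each list were up to 3 called genes with the smallest adjusted p per comparison, or the most abundant where none was called. The 3 nearest profiles came from protein-coding genes with a mean of at least 5 CPM, and HOXB9 checked the labels. Alternatives were other scaling (RLE, library size), DESeq2 1.42.0, other filters, only the groups compared, GC and length correction (loess, GENCODE 29), a replicate block and each library left out. A crossed block was added after seeing the data.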

Additional observations from a re-analysis of the deposited data

How the results depend on the processing

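With any 1 library left out, between 3 and 4 of these genes were called in T133A over WT, 7 and 8 in KO over WT, and 6 and 7 in T133A over KO. With RLE size factors, library size only or the GC and length correction, the numbers were 4, 8 and 7, as in the main analysis. The 1560 genes called in all in T133A over WT became 2401 with the GC and length correction and ranged from 763 to 2579 with 1 library left out (763 without WT replicate 1, 840 without WT replicate 2 and 2579 without T133A replicate 2). Sign changes, listed here, were in differences that did not pass in the main analysis. With 1 library left out, T133A over WT ranged from -0.042 to 0.28 for LUM, -0.11 to 0.63 for LOX, -0.61 to 0.24 for LOXL4, -1.07 to 0.64 for DCN and -0.077 to 0.11 for BMP1, KO over WT from -0.16 to 0.28 for LOXL3, and T133A over KO from -0.10 to 0.26 for LOXL2. LOXL3 in KO over WT was -0.021 with the GC and length correction, alone or with the replicate block (-0.0207 and -0.0205). BMP1 in T133A over WT was -0.062 with library size only, -0.012 with a mean of at least 5 CPM, -0.0001 with only the compared groups, -0.0502 with the GC and length correction and -0.0492 with that and the block. The cause was not tested.

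The replicate numbers have no stated source, and deviations of same-numbered libraries correlated weakly (r = -0.05 for T133A and WT, 0.02 for KO and WT, -0.12 for T133A and KO, over 16340 genes), so the numbers were not taken as pairs. With a replicate block, 4, 8 and 7 of these genes were called in T133A over WT, KO over WT and T133A over KO, and 1419, 7165 and 6031 of all genes. FBN2 in T133A over WT then missed the threshold (adjusted p = 0.0563), as did ATP7A in T133A over KO with block and correction together (adjusted p = 0.0589). With the KO numbers crossed, an alternative chosen after seeing the data, 7 of these genes and 6973 of all genes were called in T133A over KO. Few counts limit LOXL1, LOXL3 and DCN, among others.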
